A study of Mus musculus with 19 samples.

Results

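Adding loss of Cdk19 to a marrow that already lacked Cdk8 was examined by setting 4 double-knockout libraries (DKO) against 4 libraries of the Cdk8 single knockout (CDK8KO), which are 8 of the 19 bone marrow RNA-seq libraries of the study. A gene was tested where its normalized count averaged 10 or more across the 19 libraries, as held for 13976 of the 34432 genes in the table. Marrow came from untreated C57BL/6 mice aged 8 weeks and was flushed from leg bones. Both genotypes carried floxed Cdk8 alleles (flox/flox) and Vav-iCre, a transgene that expresses Cre recombinase mainly in blood-forming cells, so marrow cells in which the transgene is silent keep Cdk8. DKO mice carried the Cdk19null allele in addition. Cdk19null alone (CDK19KO, n = 4), wild type (WT, n = 3) and the Vav-iCre transgene without a floxed gene (VAV, n = 4) shared the statistical fit and served as references. Libraries of a genotype are numbered in the labels, which do not say that each stands for a separate animal. The p-values therefore describe variation among these libraries, some of which may be technical.

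CDK8 and CDK19 are closely related cyclin-dependent kinases. Either one can join cyclin C, MED12 or MED12L, and MED13 or MED13L to form the kinase module, which docks onto the Mediator complex and adjusts how enhancers and signal-dependent transcription factors, among them STAT proteins, act on RNA polymerase II. Because the paralogs can stand in for each other, the double knockout is used to uncover functions that either kinase alone maintains. In the marrow, Mediator kinases have been studied mainly in leukemia, stem cells and the maturation of myeloid cells.

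The targeted gene was checked first. Cdk19 (ENSMUSG00000038481; GRCm38/mm10 chromosome 10, 40339564 to 40483818) stood at 2710, 3498, 3015 and 3579 normalized counts in CDK8KO replicates 1 to 4 and at 1185, 1202, 1110 and 1196 in DKO. Every DKO library lay below every CDK8KO library, and the DKO mean was 36.7% of the CDK8KO mean (exact permutation test, two-sided p = 0.0286, the smallest that 4 against 4 libraries allow). Cdk19 fell by 1.44 ± 0.11 on the log2 scale (SE; limma adjusted p = 1.98e-07). Cdk8 (ENSMUSG00000029635; chromosome 5, 146231230 to 146302874), floxed in both groups, stood at 1298, 1052, 1011 and 692 in CDK8KO and at 881, 806, 761 and 742 in DKO, with overlapping libraries (78.7% of the CDK8KO mean, exact two-sided p = 0.143). Reads summed over a gene cannot show whether single exons were cut out, and for Cdk8 the genotype is taken as labelled.

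The 8 libraries held 14881701 to 29206413 reads assigned to genes, and the abundant marrow transcripts checked as markers of the tissue (S100a8, Ltf, Camp, Elane, Mpo, Hba-a1, Cd79a and Pf4) were present in every library. Red cell transcripts differed between these libraries. The 24 erythroid markers took 3.94, 0.628, 1.06 and 0.486% of reads in CDK8KO replicates 1 to 4 and 0.194, 0.285, 0.383 and 0.474% in DKO, so that no DKO library reached the lowest CDK8KO library and CDK8KO replicate 1 stood far above the rest. In VAV the markers took 0.302, 0.147, 3.46 and 0.295%, a range that spans the DKO values. DKO replicate 4 also held skeletal muscle transcripts, at 0.0394% of its reads, where none of the other 7 libraries exceeded 0.00198%. Counts of changed genes are given below without CDK8KO replicate 1 and DKO replicate 4 and after adjusting for erythroid level. What part red cell content had in single genes was not tested further.

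**Figure D1:**
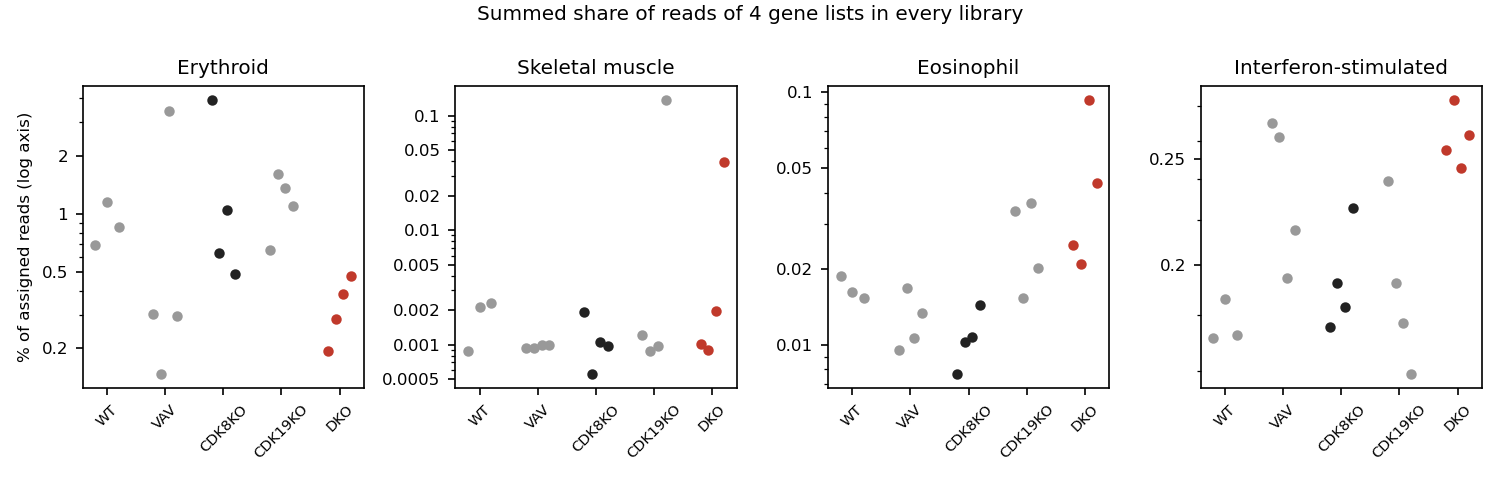
Share of assigned reads, in % on a log axis, taken by the erythroid, skeletal muscle, eosinophil and interferon-stimulated gene lists in each library, by genotype (CDK8KO black, DKO red, others grey). Erythroid shares of DKO (0.194 to 0.474%) lie below those of CDK8KO (0.486 to 3.94%), and eosinophil shares of DKO (0.0208 to 0.0934%) lie above them (0.00768 to 0.0143%).

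DKO differed from CDK8KO in 238 of the 13976 tested genes (1.7%; limma on log2(normalized count + 1), adjusted p under 0.05), of which 147 rose (1.05%) and 91 fell (0.651%). The genes that rose included granule genes of eosinophils and basophils and receptor genes of basophils, and the genes that fell included neutrophil, macrophage and histone genes. Among the calls, 149 exceeded 2-fold, 99 of them upward and 50 downward, and fold changes on this scale understate the change of low genes. The median log2 fold change was 1.20 for the genes that rose and -1.14 for those that fell, against 0.00 over all tested genes. The 4 DKO values did not overlap the 4 CDK8KO values in 225 of the 238 called genes, where 1039 of all tested genes (7.43%) showed no overlap. At an unadjusted p under 0.05 there were 2253 genes (16.1%).

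Leaving out any of 5 of the 8 libraries changed the number of called genes by more than 1.5 times. Leaving out CDK8KO replicate 1 reduced it to 123 genes, and leaving out DKO replicates 2, 3 or 4 reduced it to 119, 139 or 105. It rose to 422 when CDK8KO replicate 4 was dropped, and stood at 170, 190 and 230 without DKO replicate 1, CDK8KO replicate 3 and CDK8KO replicate 2. With both CDK8KO replicate 1 and DKO replicate 4 set aside, 77 genes were called. A fit on the 8 libraries alone, without the spread of the other genotypes, called 31 genes. Spread was unequal between genotypes. Array weights, which are lower for libraries that vary more, were 0.372 to 0.766 in CDK8KO and 0.783 to 1.59 in DKO. They were 1.32 to 2.12 in CDK19KO, 1.07 to 1.755 in WT and 0.4905 to 1.21 in VAV. The main fit shares 1 spread over the 5 genotypes, which can understate the error of groups that vary more. Of the 238 genes, 74 (46 that rose and 28 that fell) were called whichever of the 8 libraries was left out, and 106 were also called with the erythroid level as a covariate. Of these 74, 28 were also called in the fit on the 8 libraries alone. The named genes Adamdec1, Aspa, Cd209a, Cd5l, Cxcr1, Cyp11a1, Lyz1, Prg2, Prg3, Thbs1 and Xbp1 were among those not called there. Their limma adjusted p in that fit ran from 0.0507 to 0.111.

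**Figure D2:**
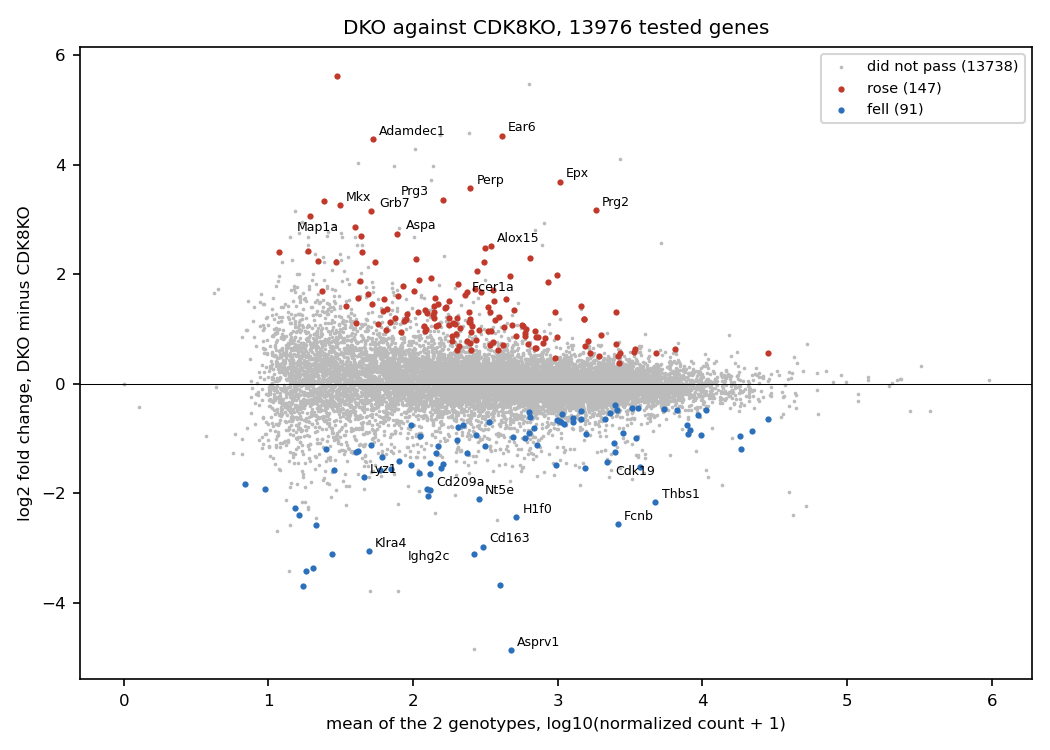
Log2 fold change, DKO minus CDK8KO, against the mean normalized count of both genotypes (log10 scale) for 13976 tested genes; red points rose (147), blue points fell (91) and grey points did not pass. Ear6 stands at 4.54 and Asprv1 at -4.87.

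Under every setting and every left-out library, 13 genes were called. Besides Cdk19, 4 of them fell, namely Asprv1, Cd163, Fcnb and H1f0, and 8 rose, namely Ear6, Epx, Fcer1a, Perp, C3ar1, Clec4b2, Dock9 and Nav2; the last 4 lie outside the rule for naming genes and were chosen after their values were seen. These genes were picked by their calls in this comparison, so that DKO stands apart from CDK8KO in all 12 is no further evidence. In the plot of their levels in all 19 libraries, Ear6 and Epx in DKO overlapped CDK19KO.

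**Figure D3:**
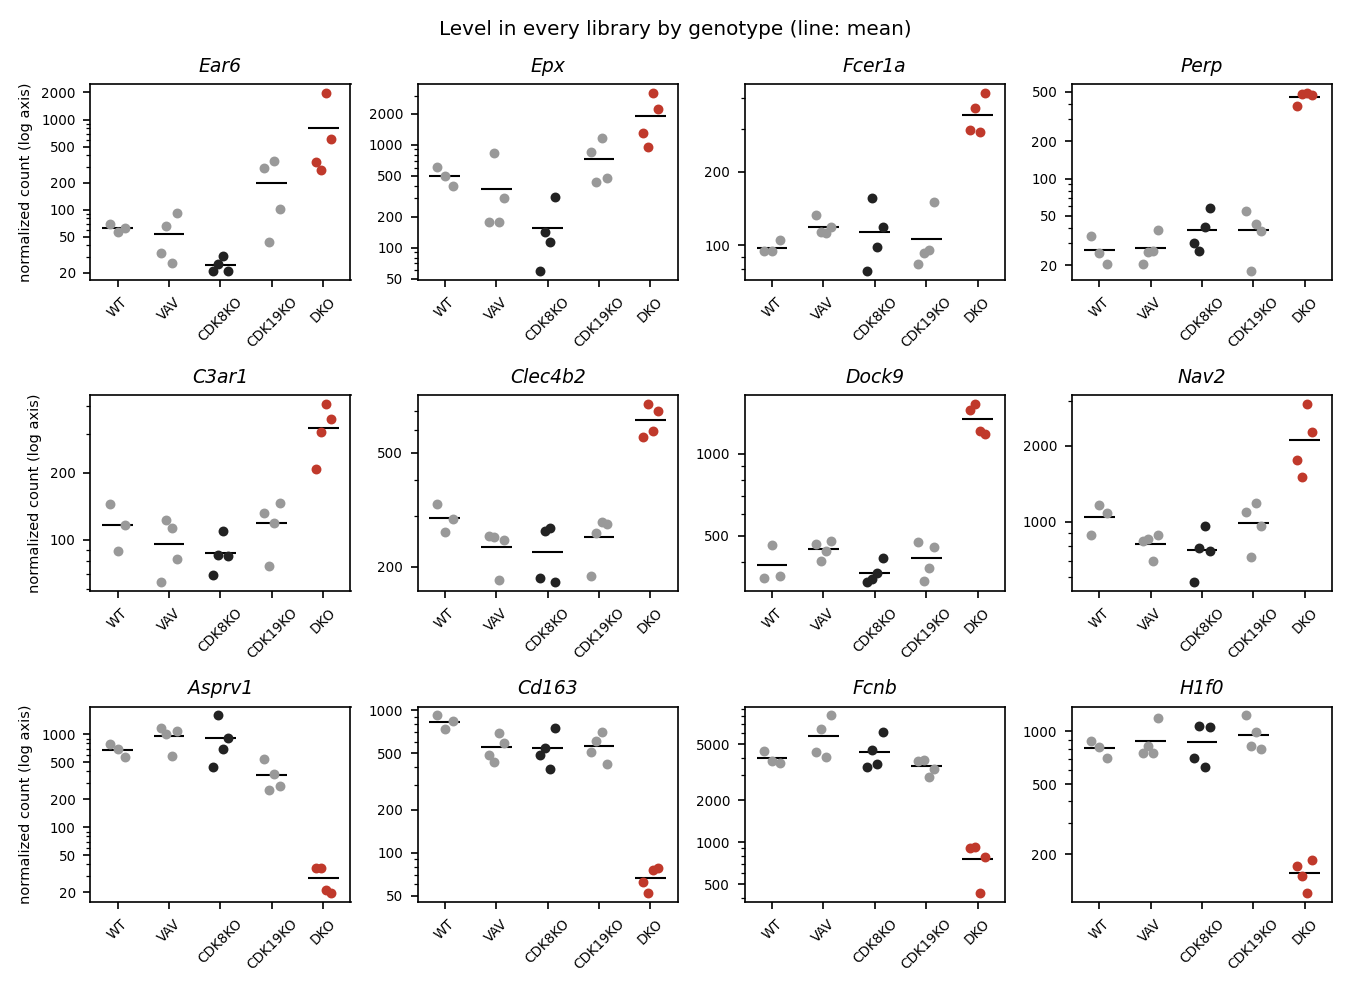
Normalized counts (log axes) of the 12 genes other than Cdk19 that were called in DKO against CDK8KO under every setting; each point is a library and lines are genotype means (CDK8KO black, DKO red, others grey). Asprv1 lies between 19.5 and 36.5 in DKO and at or above 449 in CDK8KO, and Perp lies between 384 and 485 in DKO and at or below 58.0 in CDK8KO.

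Eosinophil genes were higher in DKO. Eosinophils are granulocytes whose granules hold toxic basic proteins, a peroxidase and ribonucleases. Of the 10 tested eosinophil markers all were higher, 6 rose and none fell, with a median log2 fold change of 2.43. Over all 13976 tested genes 6992 were higher, 1.05% rose and 0.651% fell, which is the background for this and every later list count. The lists were chosen with earlier results of these data known. Since this is bulk marrow, more cells of a type and more RNA per cell cannot be told apart. Against VAV the median of the eosinophil list was smaller, at 1.84. The list took a median of 0.0105% of reads in CDK8KO, 0.0120% in VAV, 0.0162% in WT, 0.0270% in CDK19KO and 0.0343% in DKO.

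Epx, the eosinophil peroxidase, stood at 58.7, 142, 114 and 310 normalized counts in CDK8KO and at 1295, 943, 3156 and 2230 in DKO. The groups did not overlap, DKO replicate 3 was the highest library, and the log2 fold change was 3.70 ± 0.51 (SE; limma adjusted p = 0.000571). Ear6, a secreted ribonuclease of the eosinophil-associated family, stood at 20.7, 25.0, 30.6 and 21.1 in CDK8KO and at 342, 274, 1952 and 616 in DKO, a log2 fold change of 4.54 ± 0.60 (limma adjusted p = 0.000384). It had the largest rise that the naming rule found, and because the family's genes are near-identical copies, how reads were divided among them is uncertain. Prg2, the major basic protein of the granule, stood at 200, 312, 167 and 493 in CDK8KO and at 1609, 1031, 8268 and 2554 in DKO (log2 fold change 3.18 ± 0.53, limma adjusted p = 0.0037). Its homolog Prg3 stood at 16.3, 43.7, 9.85 and 33.2 in CDK8KO and at 193, 113, 632 and 231 in DKO (3.37 ± 0.48, limma adjusted p = 0.000777). Within DKO, all 4 granule genes were lowest in replicate 2 and highest in replicate 3.

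Alox15, a lipoxygenase of eosinophils and macrophages, stood at 112, 52.4, 63.5 and 89.7 in CDK8KO and at 198, 195, 1227 and 797 in DKO (log2 fold change 2.52 ± 0.55, limma adjusted p = 0.0233), and its call was lost without CDK8KO replicate 2 or 3 or DKO replicate 3 or 4. Siglecf, a surface lectin used to sort eosinophils, rose by 1.34 on the log2 scale, from a mean of 285 to 709. The receptors did not pass: Il5ra, the interleukin-5 receptor that drives eosinophil growth, differed by 1.13 (limma adjusted p = 0.235) and Ccr3, the eotaxin receptor, by 0.72 (limma adjusted p = 0.186). Ear1 (2.33) and Ear2 (0.01) did not pass either. Between 4 and 6 of the 10 markers rose when single libraries were left out, 5 rose with the erythroid covariate and 2 in the fit on the 8 libraries alone.

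The 250 bases before the RefSeq starts of 5 genes are shown to give their local sequence (RefSeq, GRCm38.p6, 5′ to 3′ on the gene's strand). Epx, Fcer1a, Cd163 and H1f0 were called under every setting, and Prg3 is a granule gene that was called whichever library was left out. Capitals mark the letters CACCC on either strand. The letters GATAAG were searched too, as were TGANTCA and, for STAT factors, TTCNNNGAA and the same TTC and GAA ends set 1 letter further apart, the spacing typical of STAT6 sites, and all are absent from these 5 windows.
Epx (chr11:87875537-87875786, minus strand): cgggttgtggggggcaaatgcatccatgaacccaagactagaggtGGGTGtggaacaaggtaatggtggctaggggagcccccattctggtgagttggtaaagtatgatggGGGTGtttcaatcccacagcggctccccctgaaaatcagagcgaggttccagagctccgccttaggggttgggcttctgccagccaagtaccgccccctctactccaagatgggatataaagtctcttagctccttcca
Prg3 (chr2:84987965-84988214, plus strand): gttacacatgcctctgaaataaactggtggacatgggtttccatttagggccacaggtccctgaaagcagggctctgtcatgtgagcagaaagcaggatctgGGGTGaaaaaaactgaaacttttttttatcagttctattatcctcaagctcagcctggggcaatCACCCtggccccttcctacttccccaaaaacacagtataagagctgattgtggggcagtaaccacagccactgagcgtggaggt
Fcer1a (chr1:173227230-173227479, minus strand): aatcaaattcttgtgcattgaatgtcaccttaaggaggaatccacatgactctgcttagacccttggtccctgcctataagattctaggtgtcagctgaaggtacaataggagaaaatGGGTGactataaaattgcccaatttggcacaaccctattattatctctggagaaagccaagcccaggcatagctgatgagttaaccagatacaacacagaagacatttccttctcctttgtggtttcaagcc
Cd163 (chr6:124304401-124304650, plus strand): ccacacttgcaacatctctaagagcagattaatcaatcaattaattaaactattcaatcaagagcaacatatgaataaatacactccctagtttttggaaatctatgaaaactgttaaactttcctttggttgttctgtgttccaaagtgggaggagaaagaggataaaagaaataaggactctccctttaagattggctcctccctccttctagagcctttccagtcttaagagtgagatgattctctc
H1f0 (chr15:79027962-79028211, plus strand): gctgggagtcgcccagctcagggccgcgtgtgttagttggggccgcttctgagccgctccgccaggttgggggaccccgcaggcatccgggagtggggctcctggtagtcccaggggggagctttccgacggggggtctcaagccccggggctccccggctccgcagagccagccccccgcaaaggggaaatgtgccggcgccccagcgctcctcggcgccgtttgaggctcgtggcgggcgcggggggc
The Epx and Prg3 windows hold CACCC at 2 places each and the Fcer1a window at 1, while the Cd163 and H1f0 windows hold none of the 5 motifs. Of the 70 named genes, 49 matched the table, with 52 windows, and GATAAG, the letters bound by GATA factors, stood in 9.62% of these against 6.55% of all 32851 windows. CACCC, found in many promoters, stood in 53.8% against 52.0% and TGANTCA, the core bound by AP-1, in 9.62% against 6.75%. TTCNNNGAA stood in 0% against 7.02% and its wider form in 3.85% against 5.85%. A match is a description of these letters and not of binding.

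Basophil and mast cell genes were also higher. These cells carry the high-affinity receptor for IgE and store proteases and histamine. Of 10 tested markers 9 were higher, 7 rose and none fell (median log2 fold change 1.02), where 1.05% of all tested genes rose. Fcer1a, the receptor's alpha chain, stood at 78.3, 156, 98.5 and 119 in CDK8KO and at 298, 366, 292 and 420 in DKO, without overlap (log2 fold change 1.63 ± 0.21, limma adjusted p = 0.000372), and was 3.04-fold higher in the mean. The receptor's beta chain Ms4a2 rose by 0.86 and the granule carboxypeptidase Cpa3 by 1.32 on the log2 scale. The basophil proteases Mcpt8 and Prss34 rose as well: Mcpt8 from 608, 1013, 791 and 1339 to 1607, 1952, 2013 and 2825 (1.19 ± 0.23, limma adjusted p = 0.0127). Prss34 went from 702, 820, 683 and 1680 to 1860, 2084, 1732 and 2632 (1.18 ± 0.24, limma adjusted p = 0.0161), where CDK8KO replicate 4 stood just below the lowest DKO library. Cyp11a1, the enzyme that starts steroid synthesis, rose by 1.90 ± 0.35 (limma adjusted p = 0.00714).

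The other basophil and mast cell markers were Gata2, a transcription factor of the lineage (0.63), Hdc, the histamine-forming enzyme (0.31), and Kit, the receptor of mast cells and progenitors (-0.30), none of which passed. The count of 7 fell to 3 without CDK8KO replicate 1, to 4 without DKO replicate 2, to 2 without DKO replicate 4, to 1 when the first and the last of these were both dropped, to 2 with the erythroid covariate and to 1 in the fit on the 8 libraries alone; Fcer1a was called each time. Of the 12 receptor genes for interleukins 3, 4, 5 and 13 and related cytokines, 8 were higher (median 0.25). In DKO against CDK8KO none passed in limma, edgeR or DESeq2, with 6 at an unadjusted p under 0.05. A member of this list, Il4ra, passed in CDK19KO against WT and in the interaction, as given below.

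Several other genes rose by a large factor. Perp, a membrane protein of cell junctions and a known target of p53, stood at 30.4, 26.2, 40.5 and 58.0 in CDK8KO and at 384, 484, 485 and 468 in DKO. The DKO mean was 11.7-fold higher, with a log2 fold change of 3.58 ± 0.32 (limma adjusted p = 2.4e-06), and the 4 DKO libraries were close to each other. Of the 23 tested p53 targets Perp was the only one that passed, and the median of the list was 0.01; Cdkn1a stood at 0.24, Mdm2 at -0.01 and Bax at 0.11.

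Dock9, an activator of the small GTPase Cdc42, stood at 338, 347, 367 and 415 in CDK8KO and at 1448, 1513, 1211 and 1178 in DKO (log2 fold change 1.86 ± 0.13, limma adjusted p = 1.54e-07). Its neighbour Farp1, another activator of small GTPases on chromosome 14 that was chosen after its values were seen, rose by 1.10 ± 0.19 (limma adjusted p = 0.00528). Both genes were higher in each DKO library than in any CDK8KO library. C3ar1, the receptor for complement fragment C3a, stood at 69.6, 84.9, 109 and 84.4 in CDK8KO and at 207, 306, 406 and 351 in DKO (1.83 ± 0.26, limma adjusted p = 0.000777). Clec4b2, a C-type lectin of myeloid cells, stood at 183, 267, 272 and 176 in CDK8KO and at 565, 736, 594 and 700 in DKO (1.55 ± 0.18, limma adjusted p = 0.000126). Nav2, a large cytoskeletal protein, rose by 1.43 ± 0.20 (limma adjusted p = 0.000568), from 574 to 964 in CDK8KO to 1507 to 2916 in DKO.

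The remaining genes that the rule named among the largest rises were low in CDK8KO. Adamdec1, a metalloprotease-like gene of macrophages and dendritic cells, had 3, 9, 0 and 1 reads in CDK8KO and 36, 39, 240 and 54 in DKO (log2 fold change 4.47 ± 0.83, limma adjusted p = 0.00816). Mkx, a homeobox gene of tendon, had 4, 7, 1 and 2 reads and then 30, 24, 146 and 17 (3.26 ± 0.67, limma adjusted p = 0.0168), and its call was lost without DKO replicate 3. Their size rests on few reads in CDK8KO and on DKO replicate 3, which was the highest library for both. Aspa, aspartoacylase, stood at 42.4, 9.98, 20.8 and 7.54 in CDK8KO and at 68.9, 77.0, 264 and 123 in DKO (2.75 ± 0.51, limma adjusted p = 0.00848). Grb7, a signalling adaptor (3.16), Map1a, a microtubule protein (2.87), and Rnf152, a ubiquitin ligase (2.70), lost their calls when 6, 6 and 8 of the 8 libraries were left out in turn. The predicted gene Gm14303, which the rule leaves out, had no reads in any CDK8KO library and stood at 28.2, 30.3, 54.7 and 117 in DKO, at least 18.3-fold higher in the mean against a floor of 3 reads per library; it was also at 0 in WT replicates 1 and 3 and CDK19KO replicates 1 and 4.

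Chitinase and stefin genes rose in part. Chit1, the chitotriosidase of phagocytes, stood at 69.6, 61.2, 83.2 and 184 in CDK8KO and at 583, 644, 299 and 574 in DKO (log2 fold change 2.47 ± 0.30, limma adjusted p = 0.00016). Chil5, a chitinase-like lectin, rose from 143, 265, 171 and 154 to 408, 468, 458 and 564, or 2.59-fold in the mean (limma adjusted p = 0.000992), and the other 4 tested members of the family, among them the abundant Chil3 (-0.45), did not pass. The stefins are small inhibitors of cysteine proteases encoded in a cluster of close copies on chromosome 16, so the division of reads among them is uncertain. Stfa1 stood at 124, 272, 214 and 145 in CDK8KO and at 1065, 763, 766 and 402 in DKO (1.97 ± 0.30, limma adjusted p = 0.00131), and Stfa3 rose by 1.67 ± 0.37 (limma adjusted p = 0.0259) with overlapping libraries. All 7 tested members of the stefin list were higher and 2 rose (median 0.84); the call of Stfa3 was lost in edgeR (adjusted p = 0.0704) and without 5 of the 8 libraries taken singly.

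Among the genes that fell, Asprv1 had the largest change. Asprv1 (ENSMUSG00000033508; chromosome 6, 86628164 to 86629710), an aspartic protease known from skin and neutrophils, stood at 449, 1597, 703 and 922 normalized counts in CDK8KO and at 36.5, 36.4, 21.1 and 19.5 in DKO. It was 32.4-fold higher in CDK8KO, with a log2 fold change of -4.87 ± 0.34 (limma adjusted p = 1.21e-07). Cxcr1, a chemokine receptor of neutrophils, stood at 25.0, 98.6, 21.9 and 48.2 in CDK8KO and at 3.32, 1.73, 4.21 and 7.49 in DKO (-3.11 ± 0.45, limma adjusted p = 0.000939), the DKO values being 2 to 5 reads per library. No other gene of the mature neutrophil list passed, although most were lower. Of 15 mature neutrophil markers 12 were lower and 2 fell (median -0.44), with S100a8 at -0.51, Csf3r, the G-CSF receptor, at -0.25 and Cxcr2 at 0.12, none of which passed.

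Fcnb, ficolin B, a lectin made by granulocyte precursors, stood at 3427, 4585, 3604 and 6170 in CDK8KO and at 906, 925, 428 and 781 in DKO (log2 fold change -2.57 ± 0.24, limma adjusted p = 5.99e-06). It was the only one of 12 tested primary granule and progenitor genes that passed, and 9 of these were higher (median 0.19); the granule enzymes Mpo and Elane stood at -0.32 and -0.27. Of 14 secondary and tertiary granule genes 10 were lower and 2 fell (median -0.35). Camp, the cathelicidin, stood at 20919, 26999, 23489 and 24769 in CDK8KO and at 11236, 12218, 13252 and 13026 in DKO (-0.95 ± 0.16, limma adjusted p = 0.00486), and Mmp8, neutrophil collagenase, fell by 0.86 ± 0.20 (limma adjusted p = 0.0342). The call of Mmp8 was lost without any of 5 single libraries, while Camp lost its call only in the fit on the 8 libraries with a replicate block. With the erythroid covariate 4 of the 14 passed. Lyz1, a lysozyme, fell from 41.3, 87.4, 94.1 and 54.3 to 19.9, 17.3, 23.2 and 18.0 (-1.70 ± 0.29, limma adjusted p = 0.004).

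Genes of the macrophages that clear red cells fell in part. Cd163, the scavenger receptor for hemoglobin bound to haptoglobin, stood at 489, 542, 388 and 749 in CDK8KO and at 62.2, 51.9, 75.8 and 77.9 in DKO, 8.09-fold higher in CDK8KO (log2 fold change -2.98 ± 0.21, limma adjusted p = 1.21e-07). The other members of the list that fell were Cd5l, a protein secreted by tissue macrophages (-1.48 ± 0.25, limma adjusted p = 0.00325), Hmox1, which degrades heme (-0.99 ± 0.21, limma adjusted p = 0.0191), and Timd4, a receptor for dying cells (-0.76 ± 0.19, limma adjusted p = 0.0486). Cd163 and Cd5l kept their calls whichever library was left out, whereas Timd4 lost its call under all 8 and Hmox1 under 3. In the fit on the 8 libraries alone Cd163 kept its call and Cd5l lost it (limma adjusted p = 0.111). The other 12 of 16 tested members did not pass, among them the iron exporter Slc40a1 (0.14), the transcription factor Spic (0.20), the adhesion molecule Vcam1 (0.36) and Adgre1, the F4/80 antigen (0.29), and the median of the list was -0.18. Vsig4, a complement receptor of tissue macrophages chosen after its values were seen, fell from 21.7, 18.7, 36.1 and 48.2 to 2.49, 1.73, 2.10 and 0 (-3.69 ± 0.49, limma adjusted p = 0.000384).

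Among 14 monocyte markers only Fn1, fibronectin, fell (-1.19 ± 0.29, limma adjusted p = 0.0406), with overlapping libraries and a call lost without 6 of the 8 libraries taken singly. With the erythroid covariate 4 monocyte genes were called and without a filter on low values none; Ly6c2 stood at 0.72 and Ccr2 at -0.06. Of 12 dendritic cell markers only Cd209a, a C-type lectin of the DC-SIGN family, fell, from 150, 139, 327 and 205 to 25.7, 61.5, 60.0 and 62.9 (-1.94 ± 0.37, limma adjusted p = 0.0092).

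H1f0, the linker histone H1.0 that replaces other H1 proteins as cells differentiate, stood at 706, 1078, 628 and 1067 in CDK8KO and at 171, 151, 120 and 186 in DKO (log2 fold change -2.44 ± 0.20, limma adjusted p = 1.03e-06). It was 5.54-fold higher in CDK8KO, without overlap. All 7 tested linker histone genes were lower and H1f0 alone passed (median -0.39), with H1f1 at -0.81. Thbs1, thrombospondin 1, an adhesive protein of platelets and macrophages, stood at 12202, 6134, 9607 and 3376 in CDK8KO and at 1101, 2192, 1391 and 1799 in DKO (-2.16 ± 0.35, limma adjusted p = 0.00272). It was the only one of 20 megakaryocyte and platelet genes that passed; 17 were lower (median -0.48), with Pf4 at -0.52 and Itga2b at -0.13. Nt5e, the enzyme CD73 that forms adenosine, stood at 458, 512, 404 and 439 in CDK8KO and at 53.9, 102, 151 and 144 in DKO (-2.10 ± 0.28, limma adjusted p = 0.000384).

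Red cell genes were lower as a group than in CDK8KO, yet few passed. Against VAV the medians were smaller, at -0.53 for the erythroid and -0.36 for the heme synthesis genes. All 24 erythroid markers and all 12 heme synthesis genes were lower in DKO, with medians of -1.52 and -1.19, but in limma 1 erythroid gene and no heme synthesis gene passed (7 of the 12 heme genes at an unadjusted p under 0.05, none in edgeR and 2 in DESeq2). Car1, carbonic anhydrase 1, fell from 9794, 4247, 4232 and 3844 to 2463, 1839, 1286 and 1739 (-1.51 ± 0.32, limma adjusted p = 0.0184), and its call was lost without CDK8KO replicate 1, DKO replicate 3 or DKO replicate 4. The beta-globin gene Hbb-bs differed by -2.40 (limma adjusted p = 0.211) and Klf1, a master regulator of the lineage, by -1.48 (limma adjusted p = 0.128). Rab30, a small GTPase, and Reep6, a protein of the endoplasmic reticulum, fell by 2.05 ± 0.51 and 1.93 ± 0.38 (limma adjusted p = 0.0487 and 0.0135), both were highest in CDK8KO replicate 1, and both calls were lost without it and with the erythroid covariate. The call of Rab30 was also lost without CDK8KO replicate 3, without any DKO library and in edgeR (adjusted p = 0.05004). Of 30 S phase genes 28 were lower and Rfc4, a subunit of the clamp loader, fell (-0.97 ± 0.21, limma adjusted p = 0.0205; list median -0.50). The call of Rfc4 was lost without CDK8KO replicate 1, DKO replicate 2 or DKO replicate 4 and with the erythroid covariate, and the 30 genes took 0.5002% of reads in CDK8KO replicate 1, 0.271 to 0.332% in the other CDK8KO libraries and 0.229 to 0.287% in DKO. Of 25 mitosis genes 23 were lower and none passed in limma or edgeR (median -0.23, 4 at an unadjusted p under 0.05, 1 in DESeq2). DESeq2 called 7 of the 24 erythroid and 11 of the 30 S phase genes.

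Interferon-stimulated genes were mostly higher. Of 32 tested members 29 were higher, 6 rose and none fell (median 0.55), and all 15 interferon-induced GTPases were higher, of which 3 rose (median 0.46). Over all tested genes 1.05% rose and 0.651% fell. Irf7, the transcription factor that amplifies type I interferon, stood at 413, 434, 291 and 543 in CDK8KO and at 693, 808, 723 and 809 in DKO (log2 fold change 0.88 ± 0.18, limma adjusted p = 0.0161). Iigp1, a GTPase that attacks vacuoles of intracellular parasites, stood at 150, 158, 138 and 110 in CDK8KO and at 286, 440, 343 and 321 in DKO (1.31 ± 0.23, limma adjusted p = 0.0059). Both showed no overlap, while Isg15 (0.31) did not pass. Also called were Ifi44 (1.25), Oasl2 (1.31), Oasl1 (0.95), Zbp1 (0.93) and Parp14 (0.57), and among the GTPases Gbp2 (1.08) and Gbp6 (1.09).

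The 32 genes took 0.175 to 0.225% of reads in CDK8KO and 0.246 to 0.284% in DKO, where VAV libraries took 0.194 to 0.27%. The count of 6 was 1 without CDK8KO replicate 1 or 3, 2 without DKO replicate 1, 3 without DKO replicate 3, 0 without DKO replicate 2, without DKO replicate 4 or with the erythroid covariate, 11 without CDK8KO replicate 2 and 12 with DESeq2. Iigp1 kept its call whichever library was left out and was the only GTPase called without CDK8KO replicate 1 or DKO replicate 2. Of 22 genes for STAT proteins, Janus kinases and their inhibitors, 15 were higher and none passed in limma or edgeR (median 0.13, 5 at an unadjusted p under 0.05, 2 in DESeq2), with Stat3 at 0.25, Stat5a at -0.04 and Socs2 at 0.85 (limma adjusted p = 0.0727).

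In lymphoid lists single genes moved. Of 17 natural killer cell genes 11 were higher (median 0.31) while 2 fell, both receptors. Klra4, the activating receptor Ly49D, stood at 95.6, 51.2, 123 and 76.9 in CDK8KO and at 4.15, 7.79, 12.6 and 14.99 in DKO (log2 fold change -3.07 ± 0.38, limma adjusted p = 0.00017), although Klra genes are so alike that their reads could be divided differently. Ncr1, the receptor NKp46, stood at 124, 91.1, 114 and 122 in CDK8KO and at 19.9, 41.6, 67.4 and 52.5 in DKO (-1.41 ± 0.30, limma adjusted p = 0.0221), and its call was lost without CDK8KO replicate 1 or DKO replicate 1 or 2. The cytotoxic genes Gzmb (0.81) and Prf1 (-0.16) did not pass. Of 19 T cell genes 17 were higher and Cd8a rose (1.68 ± 0.34, limma adjusted p = 0.0148) with overlapping libraries; its call was lost without CDK8KO replicate 1 or DKO replicate 2, 3 or 4.

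Among 15 plasma cell genes, Xbp1, which enlarges the secretory apparatus, rose from 2165, 2727, 2773 and 3138 to 4234, 4437, 3948 and 3958 (0.63 ± 0.11, limma adjusted p = 0.00621). Prdm1, the factor Blimp-1, rose by 0.96 ± 0.21 (limma adjusted p = 0.0224), and Ighg2c, the constant region of an IgG class, fell from 163, 438, 613 and 612 to 115, 131, 21.1 and 13.5 (-3.11 ± 0.67, limma adjusted p = 0.0224). The call of Ighg2c was lost without DKO replicate 3 or 4 or CDK8KO replicate 3, and that of Prdm1 without CDK8KO replicate 1 or 3 or DKO replicate 2 or 4. The other IgG genes Ighg1 (1.47) and Ighg2b (-0.58) did not pass. No gene of the precursor B cell list (15 tested, median -0.06) or the mature B cell list (17 tested, median -0.18) passed in limma or edgeR, with 1 and 2 at an unadjusted p under 0.05 and 0 and 1 in DESeq2.

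**Figure D4:**
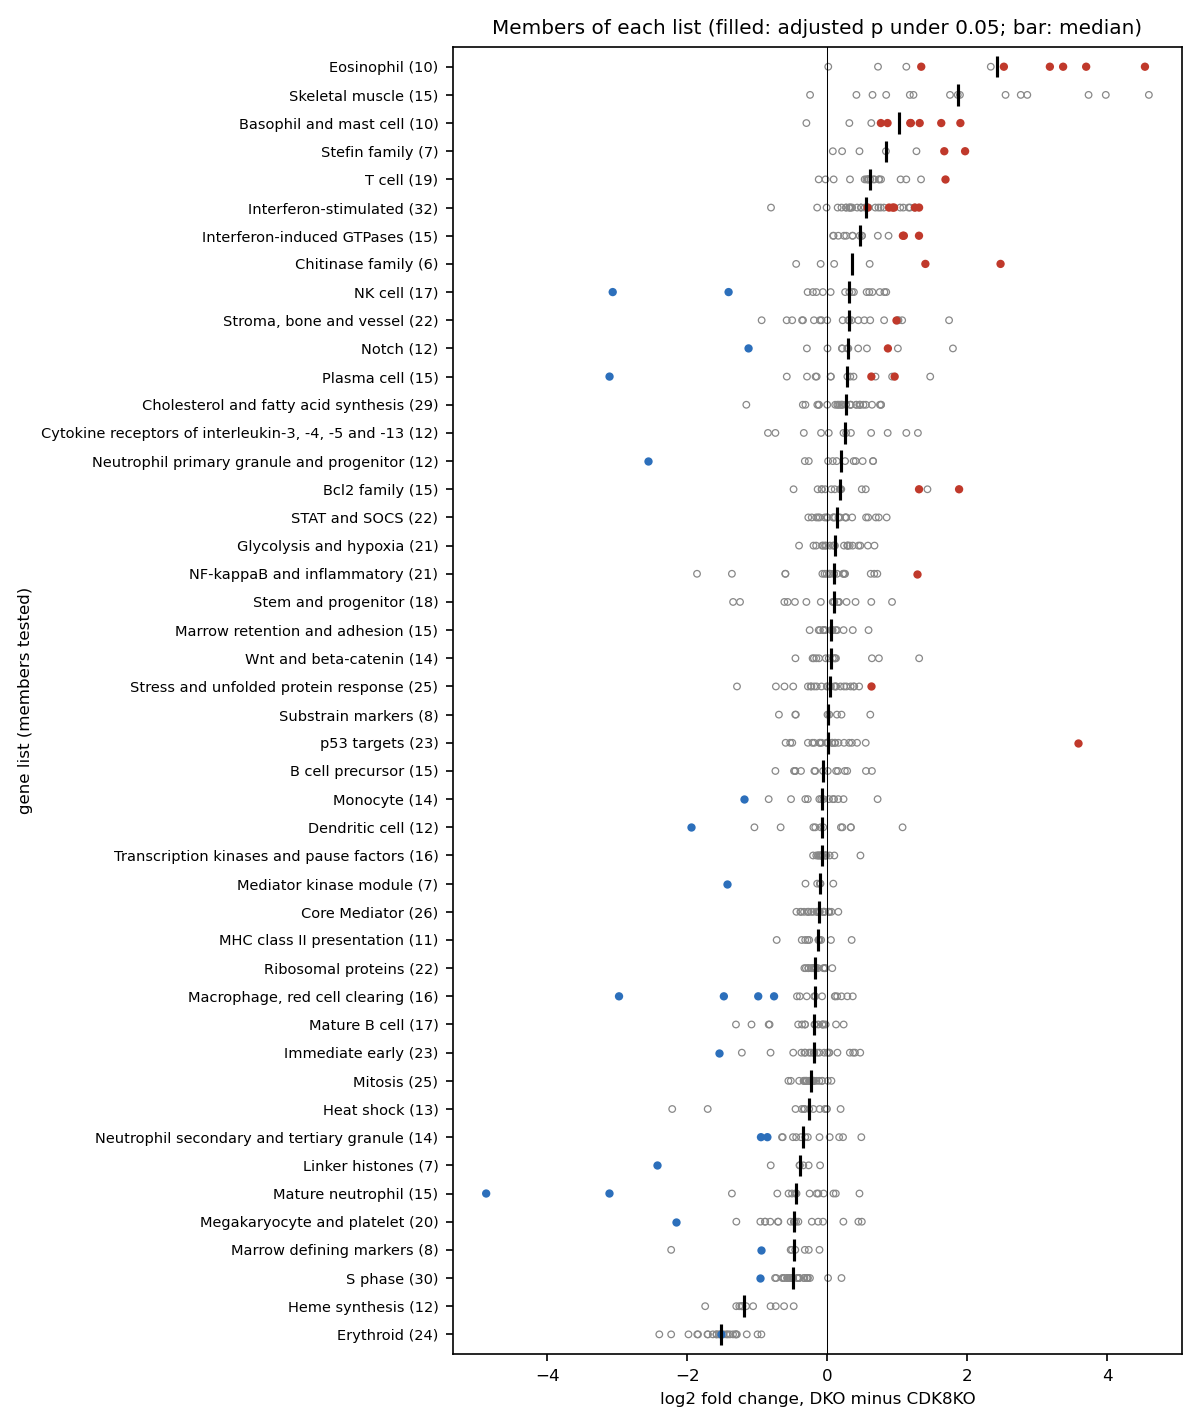
Log2 fold change, DKO minus CDK8KO, of every tested member of each gene list, sorted by the list's median (black bar); filled points passed the test (red rose, blue fell) and open points did not. The median is highest for eosinophil genes (2.43) and lowest for erythroid genes (-1.52).

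Among the 3 lists of Mediator genes and transcription kinases only the targeted gene passed. Of the 7 kinase module genes Cdk19 alone was called, and Ccnc (-0.10), Med12 (-0.11), Med12l (0.08), Med13 (-0.10) and Med13l (-0.15) did not pass. None of 26 core Mediator genes (median -0.12) and none of 16 transcription kinases and pause factors (median -0.08) passed in limma, edgeR or DESeq2, with 3 and 0 at an unadjusted p under 0.05. Of 23 immediate early genes, which respond within minutes to growth signals, Egr1 fell from 179, 140, 371 and 242 to 58.9, 46.7, 105 and 102 (-1.55 ± 0.30, limma adjusted p = 0.0129), a call lost without DKO replicate 2, with Fos at -1.22 and Dusp1 at -0.81, which did not pass. Within the other lists, the chemokine Ccl3 (1.28), the Notch ligand Jag1 (0.86), the endothelial cadherin Cdh5 (0.98) and the survival genes Bcl2a1a (1.88) and Bcl2a1b (1.31), which are near-identical copies, rose, and the Notch target Nrarp fell by 1.13 on the log2 scale (limma adjusted p from 0.0152 for Jag1 to 0.0415 for Nrarp). Jag1 lost its call without DKO replicate 2, Nrarp without any of 6 single libraries, and each of the other 4 without any of 5. No gene of the Bcl2 family was called without CDK8KO replicate 1 or DKO replicate 2, 3 or 4.

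The Cdk19null allele comes with its own stretch of chromosome 10, which can differ from that of CDK8KO mice. Of 44 tested genes that start within 5 Mb of Cdk19, 27 were higher and 17 lower (median 0.05), Prdm1 rose and Slc16a10, an amino acid transporter, fell (-1.09 ± 0.27, limma adjusted p = 0.0468). The share called over all tested genes was 1.7%. Neither was called without CDK8KO replicate 1 or 3, or DKO replicate 2 or 4.

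Whether Cdk19 loss changed genes differently where Cdk8 was deleted was tested with CDK19KO against WT, a pair that shares no library with DKO against CDK8KO. In CDK19KO against WT 3 genes fell and none rose in limma (0.0215% of tested genes), DESeq2 called 15, and 1 or 2 were left when any single library was dropped. Cdk19 fell there by 1.53 on the log2 scale, close to its fall in DKO, and the difference of the differences was 0.10 (limma adjusted p = 0.895). Of the 147 genes that rose in DKO, 97 were higher in CDK19KO than in WT (median 0.09, where 50.2% of all tested genes were higher), and of the 91 that fell, 52 were lower (median -0.04). Their changes in CDK19KO were thus near 0 on the median, but the lists differed. All 10 eosinophil genes were higher in CDK19KO than in WT (median 0.45), and so were 28 of 32 interferon-stimulated genes (0.19). Of the stefin genes 6 of 7 were higher (0.28), and of the basophil and mast cell genes 6 of 10 (0.02). Chitinase genes were higher in 2 of 6 cases (-0.22) and T cell genes in 1 of 19 (-0.39). Some lists that were mostly lower in DKO than in CDK8KO were mostly higher in CDK19KO than in WT. These were erythroid (22 of 24, median 0.21), linker histone (7 of 7, 0.27), S phase (21 of 30, 0.04) and mitosis genes (20 of 25, 0.09). Mature neutrophil genes were mostly lower in CDK19KO too, with 3 of 15 higher (-0.19). CDK19KO and WT carry no Vav-iCre, so the deletion of Cdk8 and the presence of the transgene cannot be told apart in this test.

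The interaction, that is DKO minus CDK8KO less CDK19KO minus WT, passed in 21 genes (0.15%), 13 positive (0.093%) and 8 negative (0.0572%), of which 19 were also called in DKO against CDK8KO; it was 18 in edgeR, 98 in DESeq2, 10 without WT replicate 3 and 12 without CDK19KO replicate 2. Asprv1 changed by -0.96 in CDK19KO, from 783, 693 and 570 in WT to 537, 253, 378 and 279, which left an interaction of -3.91 (limma adjusted p = 0.000797). Cd163 stood at 923, 743 and 840 in WT and at 512, 612, 703 and 419 in CDK19KO, a difference of -0.59 and an interaction of -2.38 (limma adjusted p = 0.000797). H1f0 (interaction -2.68, limma adjusted p = 0.000277) and Fcnb (-2.37, limma adjusted p = 0.00471) differed by 0.24 and -0.20 in CDK19KO.

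Upward, Perp differed by 0.43 in CDK19KO against WT and had an interaction of 3.14 (limma adjusted p = 0.0047). Chit1 was lower in CDK19KO (36.6, 41.6, 29.0 and 45.9) than in WT (71.3, 62.5 and 70.3), a difference of -0.83, and its interaction was 3.30 (limma adjusted p = 0.0012). Lipg, an endothelial lipase also found in myeloid cells, stood at 198, 414, 84.3 and 239 in CDK8KO and at 1160, 1334, 1130 and 559 in DKO, against -1.10 in CDK19KO (interaction 3.39, limma adjusted p = 0.0248). Dock9 (1.78), Clec4b2 (1.78), Nav2 (1.52) and Il17rb, a receptor for interleukin-25 (1.92), had positive interactions that passed as well. The eosinophil genes did not pass this test: Ear6, at 288, 44.2, 349 and 102 in CDK19KO and 68.7, 57.2 and 62.7 in WT, had an interaction of 3.33 (limma adjusted p = 0.231) and Epx one of 3.25 (limma adjusted p = 0.11). Fcer1a (1.55) had an adjusted p of 0.0589 in limma. Acod1, which makes itaconate, passed the interaction (2.34, limma adjusted p = 0.0446) without passing in DKO against CDK8KO. Its call was lost without any of 12 of the 15 libraries in that test, that of Lipg without any of 8. Il4ra, chosen after its values were seen, also passed the interaction (1.32, limma adjusted p = 0.0165). It differed by 0.23 in DKO against CDK8KO (limma adjusted p = 0.493) and fell by 1.09 in CDK19KO against WT (limma adjusted p = 0.0237).

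A core histone and a homeobox gene stood at very different levels across genotypes. H2bc24, a core histone H2B gene, stood at 32.6, 57.2 and 44.8 in WT, at 894, 448, 435 and 947 in CDK19KO, at 186 to 944 in VAV, at 1112, 444, 315 and 780 in CDK8KO and at 481, 19.04, 11.6 and 36.0 in DKO. It was therefore higher in CDK19KO than in WT (3.83) and lower in DKO than in CDK8KO (-3.68 ± 0.80, limma adjusted p = 0.0224), with DKO replicate 1 inside the CDK8KO range, an interaction of -7.52 (limma adjusted p = 0.00611) that edgeR did not call (adjusted p = 0.0825). Prox1, a homeobox gene, had 4, 2, 2 and 3 reads in CDK8KO and 26, 20, 14 and 15 in DKO, or 2.19 to 22.5 normalized counts. It was as low in VAV (3.57 to 8.02), and stood at 518, 848 and 533 in WT and at 332 to 941 in CDK19KO, so the low level was common to the 3 genotypes with Vav-iCre. Its fold changes rest on these few reads, and its interaction call was lost without any of 8 of the 15 libraries.

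**Figure D5:**
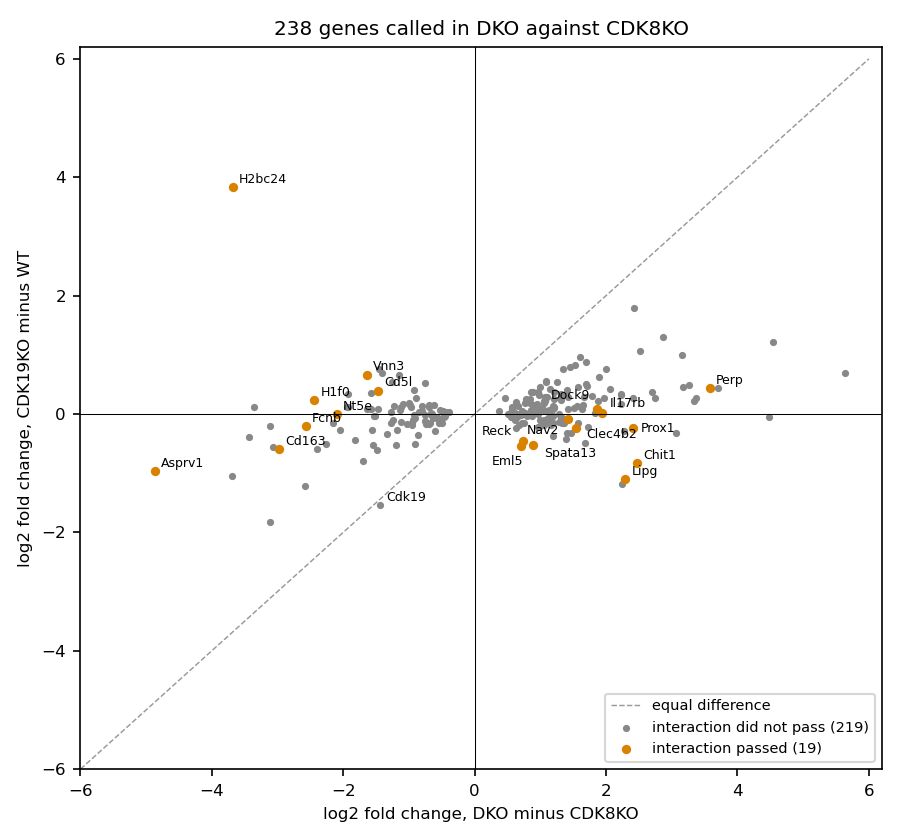
Log2 fold change of the 238 called genes in DKO minus CDK8KO (horizontal) and in CDK19KO minus WT (vertical), which share no library; orange points passed the interaction (19), grey points did not (219), and the dashed line marks equal differences. Cdk19 lies near the line (-1.44 and -1.53), whereas Asprv1 (-4.87 and -0.96) and Perp (3.58 and 0.43) lie away from it.

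Against VAV, a comparison that reuses the DKO libraries, 213 genes passed (1.52%), 116 of them higher (0.83%) and 97 lower (0.694%). Of the 63 genes that the naming rule gave and that were called against CDK8KO, 40 were also called against VAV. The differences of 8 genes called under every setting are given first, against VAV and then against CDK8KO. Asprv1 stood at -5.05 and -4.87, Cd163 at -3.01 and -2.98, Fcnb at -2.93 and -2.57, and H1f0 at -2.48 and -2.44. Perp stood at 4.02 and 3.58, Ear6 at 3.58 and 4.54, Epx at 2.51 and 3.70 and Fcer1a at 1.51 and 1.63. For Irf7 the values were 0.46 and 0.88, and for Car1 -1.05 and -1.51, and neither passed against VAV (limma adjusted p = 0.225 and 0.126). The other 21 that did not pass against VAV were Mkx, Grb7, Map1a, Rnf152, Alox15, Rab30, Reep6, Lyz1, Fn1, Timd4, Xbp1, Cdh5, Ifi44, Oasl1, Parp14, Iigp1, Gbp6, Gbp2, Ccl3, Nrarp and Rfc4.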

How the data were processed

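Poly(A) RNA from flushed bone marrow was sequenced on a NovaSeq X, per the labels' protocols. The deposited signal values are gene counts that the authors divided by a size factor for each library; per the submitters' processing notes Salmon 1.4.0 and DESeq2 were used with mm10, and their roles, the annotation and the strand setting are not given in the sources used here. Each column was a whole multiple of 1 step within 0.001, so whole reads were recovered for the count-based alternatives. None of the 27 pairs of libraries within a genotype agreed within sampling noise.

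The main test was limma 3.58.1 (R 4.3.3, trend) on log2 of the normalized count plus 1, in a single model of all 5 genotypes, with Benjamini-Hochberg adjustment over 13976 genes at 0.05. Alternatives were edgeR 4.0.16 and DESeq2 1.42.0 on recovered reads, other pseudocounts (0.5 and 5), filters, TMM scaling, array weights, a covariate for erythroid level, a replicate block, and leaving out each library. The limma code was also run on simulated counts. These gave each gene the same spread in every genotype, so they do not cover the unequal spread described above. The 8 compared libraries held 14881701 to 29206413 assigned reads, and 3 reads per library were taken as the floor for genes at 0.

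Named genes were the 12 per direction with the largest change among called genes with a mean of at least 50 in either genotype and no overlap between them, the kinase module, up to 4 called members per gene list by p, and up to 5 per direction of the interaction. Predicted and sex-linked genes and the V, D and J segments of antigen receptors were not eligible. Genes and lists were chosen with earlier results of these data known. Coordinates are from GENCODE vM21, which matched 13972 of the tested genes.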

Additional observations from a re-analysis of the deposited data

Results flagged for a closer look

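In 7 of 140 sets of 4 libraries (70 named genes in DKO and in CDK8KO), 1 library lay far from the other 3, where chance alone gives about 1 in 20. In DKO these were Mkx in replicate 3 at 154 normalized counts (others 20.8 to 25.5), Cd209a in replicate 1 at 25.7 (others 60.0 to 62.9) and H2bc24 in replicate 1 at 481 (others 11.6 to 36.0). In CDK8KO they were Med13 in replicate 3 at 14935 (others 8608 to 8858), Prss34 in replicate 4 at 1680 (others 683 to 820), Car1 in replicate 1 at 9794 (others 3844 to 4247) and Prox1 in replicate 1 at 4.35 (others 2.19 to 2.496).

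The effect of Cdk19 loss differed between the background with Cre and deleted Cdk8 and the background without either, by the interaction in limma. On the log2 scale the difference was 3.39 for Lipg, 3.30 for Chit1, 3.14 for Perp, 2.64 for Prox1 and 2.34 for Acod1. Leaving out single libraries ended the call of Lipg and of Prox1 in 8 of 15 cases each and that of Acod1 in 12. It was -7.52 for H2bc24, -3.91 for Asprv1, -2.68 for H1f0, -2.38 for Cd163 and -2.37 for Fcnb.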

How the results depend on the processing

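The 238 calls between DKO and CDK8KO became 711 with DESeq2 (328 higher, 383 lower), 106 with array weights, 31 with only these 8 libraries in the fit, 17 when a replicate block was added to that, 77 without CDK8KO replicate 1 and DKO replicate 4 together, and 105 to 422 when single libraries were left out. The interaction counts were 98 with DESeq2, 34 with array weights and 10 to 21 without single libraries (10 without WT replicate 3, 12 without CDK19KO replicate 2). For CDK19KO against WT the count was 6 without a filter, 15 with DESeq2, 7 with array weights, 1 with a replicate block and 1 to 2 without single libraries. DKO against VAV gave 504 with DESeq2 and 606 with the erythroid covariate. The log2 ratio of the Cdk19 means ranged from -1.52 to -1.39 without single libraries. Where a left-out library leaves 3 against 4, the smallest exact p is 0.0571. The cause of these shifts was not tested.

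Signs turned in 5 genes that never passed. Cdk8 was at 0.0081 and Med12 at 0.073 with the erythroid covariate, and Med12l at -0.023 with edgeR and -0.021 with DESeq2. Without single libraries, Ccnc ranged from -0.17 to 0.031, Med13 from -0.17 to 0.090, Med12l from -0.15 to 0.38 and Med12 from -0.21 to 0.047.

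Same-numbered libraries of DKO and CDK8KO correlated between -0.088 and 0.153 in their deviations, and differently numbered ones between -0.225 and 0.201. The labels do not say what the numbers stand for, and so few values cannot show whether they pair the libraries. The replicate block over all libraries gave 204 calls (128 higher, 76 lower).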
